A study of Mus musculus with 51 samples.

Results

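The duodenal comparison took in 9 of the 51 libraries of the study, 4 from mice that had Roux-en-Y gastric bypass (RYGB) and 5 from mice that had a sham operation, and covered all 10929 named genes of the deposited duodenal table. RYGB mice and sham mice were male, diet-induced obese C57Bl6 animals with no engineered allele named in the labels, and tissue was taken 9 weeks after the operation. Both groups passed through an elemental liquid diet before a stepwise return to a high-fat diet. Sham mice had their food restricted so that body weight matched that of the RYGB mice, so the operation and the restriction cannot be told apart. All animals were fasted overnight and killed at 10 in the morning, and villi were scraped from the mucosa after a short incubation in ice-cold EDTA. Values are the deposited CPM, reads per gene scaled to the library total, and the read depth behind them is unknown. Enterocyte markers were abundant in every library, with a summed level over 10 genes of 34507 to 59910.6 CPM in RYGB libraries and 26496.1 to 69626.1 CPM in sham libraries.

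The duodenum is the segment in which acid from the stomach, bile and pancreatic juice meet the meal. Its absorptive enterocytes take up iron, calcium, folate, sugars and lipid, and carry alkaline phosphatases on the brush border. Cells divide in the crypts, where stem cells and antimicrobial Paneth cells lie, and mature as they move up the villus. After RYGB, food runs from a small gastric pouch into the jejunum, and the duodenum is left in the limb that carries bile and pancreatic juice.

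Expression of 24 genes fell (0.22% of 10929) and expression of 14 genes rose (0.128%) in RYGB duodenum at an adjusted p below 0.05 in limma, 0.348% of genes in all, and 2486 genes had an unadjusted p below 0.05, 17.6% of genes higher and 5.11% lower. The genes that fell encode alkaline phosphatases, ferritin, a proton channel, lipid, sugar and folate carriers and the transcription factors Meis2 and Foxq1. The genes that rose include the Paneth cell genes Itln1 and Defa24, the cell division genes Prc1, Ect2, Mcm2 and Brip1, and the chaperone gene Hsp90aa1. In the fallen genes the log2 fold change, on log2(CPM + 1) and RYGB minus sham, lay between -6.05 and -1.36, and in the risen genes between 1.31 and 2.56. In each of the 38 genes the 4 RYGB libraries lay wholly on the other side of the 5 sham libraries. Such a separation occurred upward in 643 genes (5.88%) and downward in 185 genes (1.69%) of the table. The median gene had a log2 fold change of 0.15, and of -0.01 when the CPM were rescaled by median of ratios, a shift of 0.16 in that median that is smaller for genes at low CPM. The fold change was above 0 in 63.6% of genes and below 0 in 36.4%. In bulk tissue such as this, fewer cells of a type and less RNA per cell cannot be told apart.

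**Figure D1:**
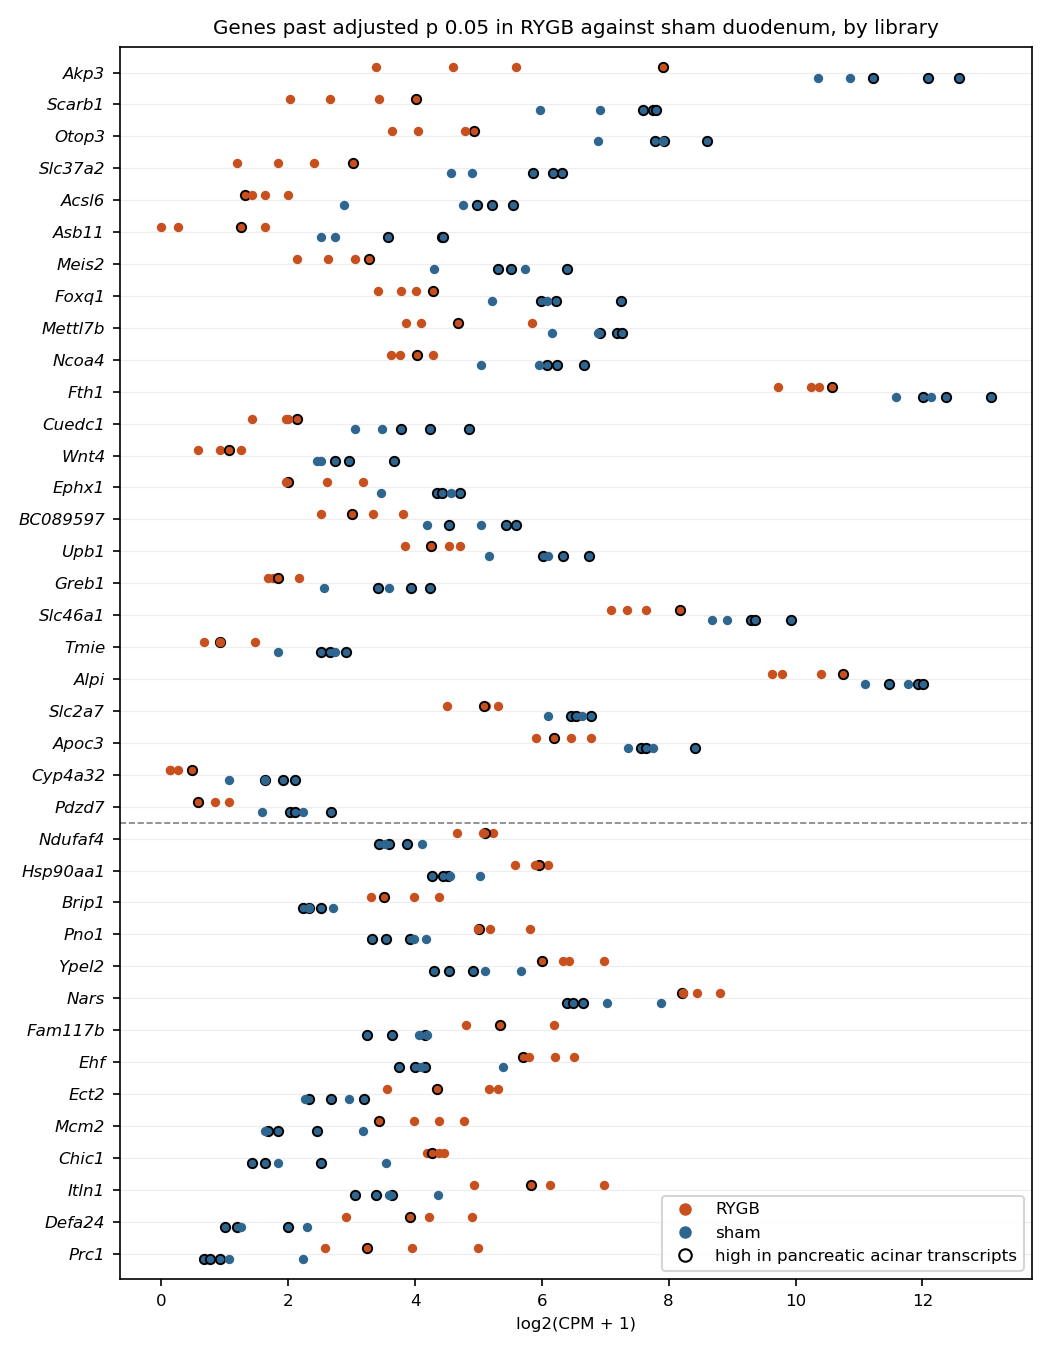
Level of each of the 38 called genes in every duodenal library, as log2(CPM + 1), with RYGB libraries in orange, sham libraries in blue and black rings on the libraries high in pancreatic acinar transcripts. The 24 genes above the dashed line fell and the 14 below it rose, with no overlap between the groups, and sham 5 is the sham library nearest to the RYGB libraries in most genes.

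RYGB 2 and sham 1, 2 and 3 were high in transcripts of pancreatic acinar cells, the enzyme-secreting cells of the exocrine pancreas. Summed over the 21 measured acinar genes, the level was 183.4, 16099.4, 391.5 and 29 CPM in RYGB 1 to 4, against 63486.3, 92143.2, 63583.6, 856.9 and 74.2 CPM in sham 1 to 5. Pancreatic lipase, Pnlip, had 35.8, 4307.9, 91 and 3.5 CPM in RYGB libraries 1 to 4, against 17083.4, 22022, 9374, 214.7 and 10 CPM in sham libraries 1 to 5. The elastase gene Cela2a had 18.4, 1126.7, 52 and 1.8 CPM in RYGB libraries 1 to 4, against 7030.7, 16684.5, 9283, 111.8 and 10.4 CPM in sham libraries 1 to 5, and the carboxypeptidase gene Cpa1 had 11, 829.8, 24.8 and 1.5 CPM in RYGB libraries 1 to 4, against 5813.6, 7819.7, 5045.3, 63.5 and 4.6 CPM in sham libraries 1 to 5. RYGB 2 and sham 1, 2 and 3 stood apart from the other 5 libraries, and the amount of acinar RNA was not balanced between the groups. Of the 21 acinar genes 0 passed the test in limma, and 0 had an unadjusted p below 0.05. The mucus gene Tff2 of Brunner glands and stomach followed the same libraries, at 0.3, 37.9, 0.5 and 0.1 CPM in RYGB libraries 1 to 4, against 67.1, 37.2, 49.2, 0.3 and 0 CPM in sham libraries 1 to 5. In the 5 libraries low in acinar transcripts (RYGB 1, 3 and 4, sham 4 and 5) the median difference was -1.53 for the 24 fallen genes and 1.40 for the 14 risen genes, a direction that groups without overlap fix in advance, and 0 genes passed the threshold (378 at an unadjusted p below 0.05). Only a few of the results below carry values without these libraries. With the log2 of the summed acinar CPM (plus 1) as a covariate, limma called 0 higher and 4 lower genes, all 4 among the 38. The part of the acinar RNA in the other results was not tested further.

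Intestinal alkaline phosphatases, brush-border enzymes that remove phosphate from lipids, nucleotides and bacterial lipopolysaccharide, fell. Of the 4 genes of this family listed, 2 were measured and both fell (0.22% of all genes did). Akp3, the duodenal form in mice, had 47.5, 239.8, 23.2 and 9.4 CPM in RYGB libraries 1 to 4, against 4374.9, 2388.6, 6106.6, 1855.8 and 1302.6 CPM in sham libraries 1 to 5. On the log2 scale the difference was -6.05 ± 0.85 (SE), adjusted p = 0.0371. Every RYGB library was far below every sham library, and the highest RYGB value came from RYGB 2, which is high in acinar RNA. In the libraries low in acinar RNA the mean was 26.7 CPM in RYGB (n = 3), against 1579 CPM in sham (n = 2). Alpi, expressed along the intestine, had 883.1, 1723, 1353.7 and 792.5 CPM in RYGB libraries 1 to 4, against 3897, 2852.8, 4105.7, 3503.8 and 2177.5 CPM in sham libraries 1 to 5. RYGB minus sham came to a log2 fold change of -1.51 ± 0.28 (SE), adjusted p = 0.0487. RYGB libraries retained a substantial Alpi level, and RYGB 2 again stood nearest the sham range. The genes are divergent neighbours, Akp3 at chr1:87124973-87127912 on the plus strand and Alpi at chr1:87098002-87101606 on the minus strand in GRCm38. The 250 bases before each transcription start, from RefSeq (GRCm38.p6), are shown because the neighbours fell to such different depths. Capitals mark matches, on either strand and without overlap, to TATAAA, CAAAGTCCA (a form bound by HNF4), CCAAT and TTTGAA.
Akp3 (chr1:87124704-87124953, plus strand): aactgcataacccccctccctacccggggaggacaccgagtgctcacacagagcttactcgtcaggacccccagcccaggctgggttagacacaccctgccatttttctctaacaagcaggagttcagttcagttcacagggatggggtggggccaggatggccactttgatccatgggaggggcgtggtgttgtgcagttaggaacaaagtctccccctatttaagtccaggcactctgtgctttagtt
Alpi (chr1:87101607-87101856, minus strand): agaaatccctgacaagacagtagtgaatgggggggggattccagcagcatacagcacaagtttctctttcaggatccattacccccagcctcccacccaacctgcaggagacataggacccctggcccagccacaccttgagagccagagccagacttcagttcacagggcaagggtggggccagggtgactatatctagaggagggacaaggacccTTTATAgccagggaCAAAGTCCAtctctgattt
Alpi holds CAAAGTCCA and, on the opposite strand, TATAAA within this window, and Akp3 holds none of the 4 motifs. CAAAGTCCA occurred in 0.404% and TATAAA in 6.65% of the same windows of the 8406 measured genes with a RefSeq entry, and in 1 and 5 of the 20 fallen genes that had an entry.

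Among 25 measured genes of dietary lipid absorption, 2 fell and 0 rose (0.22% and 0.128% of all genes did). The median log2 fold change was -0.02, beside 0.15 for all genes. Scarb1, a scavenger receptor for high-density lipoprotein that also takes up cholesterol and carotenoids, had 5.3, 15.1, 9.8 and 3.1 CPM in RYGB libraries 1 to 4, against 215, 192.4, 222.9, 119.4 and 62 CPM in sham libraries 1 to 5. In limma the log2 fold change was -4.18 ± 0.45 (SE), adjusted p = 0.00577. The highest RYGB library, RYGB 2, lay well below the lowest sham library, sham 5. Apoc3, an apolipoprotein of triglyceride-rich particles, had 59, 71.8, 108 and 86.9 CPM in RYGB libraries 1 to 4, against 188.7, 199.4, 339, 163.3 and 215.5 CPM in sham libraries 1 to 5. This gave a log2 fold change of -1.42 ± 0.24 (SE), adjusted p = 0.0381. Acsl6, an acyl-CoA synthetase outside the list, fell to 1.5 to 3 CPM in RYGB libraries, against 6.4 to 45.9 CPM in sham libraries (log2 fold change -3.08 ± 0.45 SE, adjusted p = 0.023). Npc1l1, the brush-border cholesterol importer, had 361.6, 299.5, 536.7 and 532.4 CPM in RYGB libraries 1 to 4, against 555.7, 906.5, 831.1, 920.6 and 763.5 CPM in sham libraries 1 to 5. Its groups did not overlap, but the difference did not pass (log2 fold change -0.90 ± 0.23 SE, adjusted p = 0.0748). The main structural genes of the chylomicron showed no such separation. Apoa4 had 6057.7 to 16653.1 CPM in RYGB libraries, against 4098.8 to 20850.5 CPM in sham libraries, and Apob had 8537 to 19505 CPM in RYGB libraries, against 8084.8 to 20019.8 CPM in sham libraries. Fabp2, the fatty acid binding protein of enterocytes, had 4498.8 to 10537 CPM in RYGB libraries, against 3265.8 to 10807.1 CPM in sham libraries. The ranges of the groups overlapped for all 3.

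Otop3, an otopetrin proton channel, had the smallest p in the table. It had 15.5, 29.6, 11.4 and 26.6 CPM in RYGB libraries 1 to 4, against 220, 242, 386.6, 238.8 and 117.5 CPM in sham libraries 1 to 5. The log2 fold change was -3.47 ± 0.34 (SE), adjusted p = 0.00331. Even the highest RYGB library held only a fraction of the lowest sham level. Among 14 measured genes of acid, bicarbonate and chloride transport, a list that does not hold Otop3, 0 passed in limma and the median was -0.38. At an unadjusted p below 0.05, 5 were higher and 5 lower, where 17.6% and 5.11% of all genes lay. Slc4a7, a sodium bicarbonate cotransporter with high levels in this tissue, had 428.8, 1319.5, 421.3 and 502.3 CPM in RYGB libraries 1 to 4, against 6851.4, 2599.7, 2181.8, 3965.3 and 716.3 CPM in sham libraries 1 to 5. RYGB 2 lay above sham 5 there, and the other RYGB libraries lay below every sham library. Slc12a2, the basolateral chloride importer of secreting crypt cells, had 141.4, 46.8, 8.8 and 249.2 CPM in RYGB libraries 1 to 4, against 9.5, 9.7, 5.6, 9.6 and 5.8 CPM in sham libraries 1 to 5. RYGB 1 and 4 were high, and RYGB 3 lay within the sham range (log2 fold change 2.86 ± 0.79 SE, adjusted p = 0.093).

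Carriers of folate, hexose and glucose-6-phosphate also fell, 1 gene of each kind. Slc46a1, the proton-coupled folate transporter of the upper small intestine, had 136, 288.2, 198.4 and 161 CPM in RYGB libraries 1 to 4, against 627, 655, 968.4, 484.8 and 408.4 CPM in sham libraries 1 to 5. On the log2 scale the difference was -1.67 ± 0.28 (SE), adjusted p = 0.0371. It was the only call among 13 measured genes of vitamin uptake, whose median was -0.38 (0.22% of all genes fell). Slc2a7, a facilitative hexose transporter, had 33.8, 33.1, 38.5 and 21.6 CPM in RYGB libraries 1 to 4, against 86.6, 92.1, 108.1, 98.6 and 67.5 CPM in sham libraries 1 to 5. RYGB minus sham came to a log2 fold change of -1.50 ± 0.21 (SE), adjusted p = 0.021, and the groups were well apart. It was likewise the only call among 14 genes of carbohydrate digestion and transport, with a median of -0.48 (0.22% of all genes fell). Slc37a2, a glucose-6-phosphate antiporter outside that list, had 4.3, 7.1, 2.6 and 1.3 CPM in RYGB libraries 1 to 4, against 79.2, 57, 71.6, 29 and 22.6 CPM in sham libraries 1 to 5. In limma the log2 fold change was -3.45 ± 0.43 (SE), adjusted p = 0.0145. The fructose transporter Slc2a5 had 88.6 to 193.9 CPM in RYGB libraries, against 230.3 to 334.3 CPM in sham libraries with no overlap (log2 fold change -1.09 ± 0.23 SE, adjusted p = 0.0541). Fbp1, a gluconeogenic enzyme, had 6.1 to 43.6 CPM in RYGB libraries, against 56.4 to 71.5 CPM in sham libraries, again with no overlap (log2 fold change -1.55 ± 0.41 SE, adjusted p = 0.0791). Neither passed the threshold. For the glucose transporter Slc5a1 the level was 4040.5 to 7449.2 CPM in RYGB libraries, against 4403 to 10331.6 CPM in sham libraries, for sucrase-isomaltase, Sis, 5292 to 8743.8 CPM in RYGB libraries, against 3693.5 to 15391.1 CPM in sham libraries, and for maltase-glucoamylase, Mgam, 1831.7 to 3422.9 CPM in RYGB libraries, against 2501.5 to 8254.3 CPM in sham libraries. The groups overlapped for each of these.

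The iron genes that fell encode a subunit of the iron store and the receptor for its turnover. Of 14 measured genes of iron absorption, storage and export, 2 fell and 0 rose (0.22% and 0.128% of all genes did). The median was -0.67, and 4 of the 14 genes had all RYGB libraries below all sham libraries (1.69% of all genes). Fth1, the heavy chain of ferritin, had 1326.7, 1518.8, 1214.8 and 846.4 CPM in RYGB libraries 1 to 4, against 4112.8, 5318, 8621.9, 3083.1 and 4501.2 CPM in sham libraries 1 to 5. This gave a log2 fold change of -2.01 ± 0.29 (SE), adjusted p = 0.023. Ncoa4, the receptor that delivers ferritin to autophagy, had 18.5, 15.4, 12.6 and 11.3 CPM in RYGB libraries 1 to 4, against 74.2, 67, 100.7, 61.2 and 32.1 CPM in sham libraries 1 to 5. The log2 fold change was -2.07 ± 0.29 (SE), adjusted p = 0.021. Slc40a1, ferroportin, the basolateral iron exporter, had 55.5, 225.9, 10.8 and 10.5 CPM in RYGB libraries 1 to 4, against 3034.2, 1044.3, 1321.1, 1145.2 and 392.5 CPM in sham libraries 1 to 5. The groups did not overlap, and the difference did not pass (log2 fold change -4.97 ± 0.95 SE, adjusted p = 0.057). Cybrd1, the brush-border ferric reductase, had 1, 2.2, 0 and 0.6 CPM in RYGB libraries 1 to 4, against 121.7, 16.8, 47.6, 27.4 and 2.4 CPM in sham libraries 1 to 5 (log2 fold change -3.82 ± 0.87 SE, adjusted p = 0.065). RYGB 2 was the highest RYGB library for Slc40a1 and Cybrd1, and sham 5 the lowest sham library. Slc11a2, the divalent metal importer, had 208.1, 158.4, 64.3 and 96.2 CPM in RYGB libraries 1 to 4, against 452.2, 318.2, 174.7, 365.5 and 93.2 CPM in sham libraries 1 to 5, and the light chain gene Ftl1 had 13.3 to 31.4 CPM in RYGB libraries, against 27 to 76 CPM in sham libraries. These 2 genes lie outside the naming rule and were chosen after their values were seen, and their groups overlapped. Exons of Ftl1 overlap other genes on both strands, so its level is uncertain. Without RYGB 3 the list held 3 lower and 1 higher calls, where 1.48% of all genes were lower and 7.5% higher. Without sham 5 it held 5 lower and 0 higher, where 1.25% and 2.77% of all genes passed. Ferritin and ferroportin mRNA that carries an iron-responsive element in the 5′ untranslated region is controlled in translation through that element. For such mRNA the level is only a part of control, and gene CPM do not separate transcript forms. The 30 bases around the letters of the element, from GENCODE transcripts on GRCm38, are shown for the ferritin heavy chain and ferroportin. The bulged C and the CAGTG of the loop are in capitals.
Fth1 (chr19:9982729-9982758, plus strand): ggtttcctgCttcaaCAGTGcttgaacgga
Slc40a1 (chr1:45925467-45925496, minus strand): ttccaacttCagctaCAGTGttagctaagt
These letters alone (a C, 5 further bases and CAGTG), searched on the transcript strand, occurred in the 5′ untranslated regions of 11.6% of 10812 measured genes.

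Calcium genes of the list gave 0 calls among 9 measured members, with a median of -0.31. At an unadjusted p below 0.05 in limma, 2 were higher and 3 lower, where 17.6% and 5.11% of all genes lay. S100g, calbindin D9k, the cytosolic calcium carrier of the duodenum, had 4.1, 19.2, 3.3 and 2.7 CPM in RYGB libraries 1 to 4, against 339.6, 100.6, 68.8, 18.7 and 54 CPM in sham libraries 1 to 5. RYGB 2 lay just above sham 4, and the other RYGB libraries lay below every sham library (log2 fold change -3.59 ± 0.78 SE, adjusted p = 0.0626). Atp2b1, the basolateral calcium pump, had 194.6 to 227.4 CPM in RYGB libraries, against 237.7 to 1099.7 CPM in sham libraries, and the vitamin D receptor gene Vdr had 380.5 to 560.2 CPM in RYGB libraries, against 656.3 to 1276.5 CPM in sham libraries, both without overlap. Cldn2, a paracellular cation channel of crypt cells, had 109.9, 20.5, 12.7 and 30.9 CPM in RYGB libraries 1 to 4, against 5.3, 3.1, 3.1, 3.7 and 11.9 CPM in sham libraries 1 to 5, the reverse order of levels (log2 fold change 2.47 ± 0.55 SE, adjusted p = 0.0625).

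Among 23 measured intestinal transcription factors 1 fell (0.22% of all genes did), and the median was 0.08 (-0.09 under median-of-ratios scaling). Meis2, a TALE homeobox factor, had 7.3, 8.7, 3.4 and 5.2 CPM in RYGB libraries 1 to 4, against 83.6, 38.7, 44.8, 52.1 and 18.7 CPM in sham libraries 1 to 5. On the log2 scale the difference was -2.68 ± 0.38 (SE), adjusted p = 0.021. Foxq1, a forkhead factor outside the list, had 12.7, 18.4, 9.7 and 15.1 CPM in RYGB libraries 1 to 4, against 151.3, 62.6, 74, 66.9 and 36 CPM in sham libraries 1 to 5. RYGB minus sham came to a log2 fold change of -2.28 ± 0.34 (SE), adjusted p = 0.023. Pdx1, the homeobox factor of pancreas and proximal duodenum, had 10.4, 18, 4.5 and 1.7 CPM in RYGB libraries 1 to 4, against 101.2, 44.4, 76.2, 37.2 and 21.9 CPM in sham libraries 1 to 5. All RYGB libraries were below all sham libraries, and the difference just missed the threshold (log2 fold change -2.73 ± 0.57 SE, adjusted p = 0.0544). Wnt4, a secreted Wnt ligand at low levels here, had 0.9, 1.1, 1.4 and 0.5 CPM in RYGB libraries 1 to 4, against 6.8, 5.7, 11.7, 4.7 and 4.5 CPM in sham libraries 1 to 5 (log2 fold change -1.91 ± 0.28 SE, adjusted p = 0.023). Hnf4a, a nuclear receptor of enterocytes, had 367 to 665.1 CPM in RYGB libraries, against 317.8 to 671.4 CPM in sham libraries with overlapping groups.

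The other genes that fell belong to varied pathways. Upb1, the last enzyme of pyrimidine breakdown, had 13.4 to 25.1 CPM in RYGB libraries, against 35.1 to 106 CPM in sham libraries (log2 fold change -1.74 ± 0.29 SE, adjusted p = 0.0381). Mettl7b, a methyltransferase of the endoplasmic reticulum, had 13.5, 24.5, 56.4 and 16 CPM in RYGB libraries 1 to 4, against 120.1, 145.1, 153.2, 70.7 and 117.4 CPM in sham libraries 1 to 5, with RYGB 3 nearest the sham libraries (log2 fold change -2.27 ± 0.37 SE, adjusted p = 0.0371). Ephx1, the microsomal epoxide hydrolase, had 2.9 to 8.1 CPM in RYGB libraries, against 10 to 25.3 CPM in sham libraries (log2 fold change -1.86 ± 0.32 SE, adjusted p = 0.0398). Cuedc1 had 1.7 to 3.4 CPM in RYGB libraries, against 7.3 to 27.9 CPM in sham libraries (log2 fold change -1.99 ± 0.34 SE, adjusted p = 0.0381), and Greb1, known as an oestrogen-responsive gene in breast cells, had 2.2 to 3.5 CPM in RYGB libraries, against 4.9 to 17.8 CPM in sham libraries (log2 fold change -1.68 ± 0.32 SE, adjusted p = 0.0487). BC089597 had 4.7 to 13.1 CPM in RYGB libraries, against 17.3 to 47.4 CPM in sham libraries (log2 fold change -1.80 ± 0.34 SE, adjusted p = 0.0487). Asb11, an ankyrin repeat and SOCS box gene, had 2.1, 1.4, 0.2 and 0 CPM in RYGB libraries 1 to 4, against 20.6, 10.9, 20.8, 5.7 and 4.7 CPM in sham libraries 1 to 5 (log2 fold change -2.75 ± 0.48 SE, adjusted p = 0.0403). Tmie, Pdzd7 and Cyp4a32 were at low levels in every library. Their highest RYGB values were 1.8, 1.1 and 0.4 CPM, and their lowest sham values 2.6, 2 and 1.1 CPM. All measured genes have at least 1 CPM in at least 4 libraries. Among RYGB libraries Tmie and Pdzd7 reached 1 CPM only in RYGB 4, and Cyp4a32 in none. These genes were thus kept through the sham group, in which they were higher. The same holds for Wnt4, Asb11, Cybrd1 and Igf1. Prc1, Mmp7 and Tac1, described below, were in turn kept through the RYGB group, in which they were higher. The Cyp4a family has near-identical members, among which reads may be divided uncertainly. Exons of 7 fallen and 3 risen genes overlap a gene on the opposite strand, and the labels do not say whether counting used the strand.

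Cell division genes made up 4 of the 14 risen genes. Of 33 measured S phase genes 2 rose (0.128% of all genes did), 30 had a fold change above 0 (63.6%) and the median was 0.88. Of 32 measured G2 and M phase genes 1 rose, 32 were above 0 and the median was 1.53. The lists held 42 S phase and 52 G2 and M phase genes. A gene low in sham libraries could enter the table through the 4 RYGB libraries alone. The filter may thus have set part of the counts above 0. Mcm2, a subunit of the replicative helicase, had 26.2, 9.8, 14.9 and 19.7 CPM in RYGB libraries 1 to 4, against 2.6, 4.5, 2.2, 2.1 and 8.1 CPM in sham libraries 1 to 5. In limma the log2 fold change was 1.98 ± 0.37 (SE), adjusted p = 0.0487. Ect2, an exchange factor that starts cleavage furrow formation, had 38.5, 19.3, 10.8 and 35.1 CPM in RYGB libraries 1 to 4, against 8.2, 5.4, 4, 3.8 and 6.8 CPM in sham libraries 1 to 5. This gave a log2 fold change of 1.91 ± 0.36 (SE), adjusted p = 0.0487. Prc1, which bundles the spindle midzone and lies outside the lists, had 30.8, 8.5, 5 and 14.5 CPM in RYGB libraries 1 to 4, against 0.9, 0.6, 0.7, 1.1 and 3.7 CPM in sham libraries 1 to 5. The log2 fold change was 2.56 ± 0.46 (SE), adjusted p = 0.0487. Brip1, a helicase of DNA repair, had 8.9 to 19.7 CPM in RYGB libraries, against 3.7 to 5.5 CPM in sham libraries (log2 fold change 1.38 ± 0.25 SE, adjusted p = 0.0487). Kif23, a kinesin of the midzone, had 21.2, 11.1, 5 and 13.1 CPM in RYGB libraries 1 to 4, against 2.8, 1.1, 1.7, 2.1 and 5.2 CPM in sham libraries 1 to 5, with RYGB 3 inside the sham range (log2 fold change 1.88 ± 0.39 SE, adjusted p = 0.0541). RYGB 1 and RYGB 4 carried most of the signal, and RYGB 3 was near the sham libraries. Summed over the G2 and M phase list the level was 1936.9, 800.7, 582.2 and 1485.7 CPM in RYGB 1 to 4, against 587, 482.4, 461.4, 652.3 and 512.5 CPM in sham 1 to 5. Without RYGB 3, 25 of the 32 G2 and M phase genes and 16 of the 33 S phase genes rose, where 7.5% of all genes did. Without sham 5 the counts were 2 and 3, where 2.77% of all genes rose, and with the acinar genes removed they were 0 and 0, where 0.0733% rose. The promoters of Mcm2 and Ect2 are shown because both hold CCAAT and TTTGAA, letters known from promoters of cell cycle genes, marked as above.
Mcm2 (chr6:88898781-88899030, minus strand): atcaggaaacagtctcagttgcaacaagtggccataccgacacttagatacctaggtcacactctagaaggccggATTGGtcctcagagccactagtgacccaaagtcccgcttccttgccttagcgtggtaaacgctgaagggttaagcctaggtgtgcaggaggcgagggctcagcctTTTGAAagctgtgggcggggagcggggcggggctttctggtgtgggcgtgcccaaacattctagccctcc
Ect2 (chr3:27153879-27154128, minus strand): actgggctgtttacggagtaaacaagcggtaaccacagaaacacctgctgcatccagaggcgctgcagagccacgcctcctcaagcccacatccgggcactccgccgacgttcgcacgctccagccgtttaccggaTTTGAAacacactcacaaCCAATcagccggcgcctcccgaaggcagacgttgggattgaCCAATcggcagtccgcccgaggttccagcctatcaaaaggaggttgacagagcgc
CCAAT was present in 36.4% of the windows of measured genes, in 7 of the 10 risen genes with an entry and in 8 of the 20 fallen ones. TTTGAA was present in 10.4% of windows, in 3 of the 10 and in 1 of the 20.

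Among Paneth cell genes of the crypt, Itln1 and Defa24 rose. Of 6 measured Paneth cell genes 2 rose (0.128% of all genes did) and 6 were above 0 (63.6%). In 4 every RYGB library lay above every sham library (5.88% of all genes), and the median was 2.42. The list held 15 genes, and here too the filter may have set part of the counts. Itln1, intelectin, a lectin that binds microbial sugars, had 69.3, 56, 29.6 and 125.8 CPM in RYGB libraries 1 to 4, against 7.3, 11.5, 9.4, 11 and 19.5 CPM in sham libraries 1 to 5. On the log2 scale the difference was 2.37 ± 0.37 (SE), adjusted p = 0.0312. Defa24, an alpha-defensin, had 17.6, 14.2, 6.5 and 28.8 CPM in RYGB libraries 1 to 4, against 1.3, 1, 3, 1.4 and 3.9 CPM in sham libraries 1 to 5. RYGB minus sham came to a log2 fold change of 2.44 ± 0.40 (SE), adjusted p = 0.0371. Defensin genes are near-identical copies, so that the split of reads between them is uncertain. Lysozyme, Lyz1, had 109.8, 103, 20.8 and 227.4 CPM in RYGB libraries 1 to 4, against 12.9, 19.1, 11.6, 10.6 and 14.4 CPM in sham libraries 1 to 5 (log2 fold change 2.59 ± 0.53 SE, adjusted p = 0.0541), and the metalloproteinase Mmp7, which activates defensins, had 39.5, 8, 4 and 18.1 CPM in RYGB libraries 1 to 4, against 1.2, 0.3, 1.2, 0.5 and 2.7 CPM in sham libraries 1 to 5 (log2 fold change 2.75 ± 0.53 SE, adjusted p = 0.0535). Neither passed, although the groups did not overlap. Without RYGB 3, 4 Paneth cell genes rose (7.5% of all genes did), and without sham 5, 5 did (2.77%). Of 10 measured stem cell genes 0 passed in limma (6 higher and 1 lower at an unadjusted p below 0.05, where 17.6% and 5.11% of all genes lay), 9 were above 0, as were 63.6% of all genes, and the median was 1.15. The stem cell list held 12 genes, with the same limit from the filter. Olfm4, a secreted glycoprotein of crypt base cells, had 231.2, 54.8, 2.9 and 283.9 CPM in RYGB libraries 1 to 4, against 1.5, 0.7, 1.5, 1.3 and 1.1 CPM in sham libraries 1 to 5. RYGB 3 was close to the sham libraries, and the other RYGB libraries were far above them (log2 fold change 4.81 ± 1.13 SE, adjusted p = 0.0762). More crypt tissue in a scraping and more RNA per crypt cell cannot be told apart from these values. The part of crypt tissue in the other differences was not tested.

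**Figure D2:**
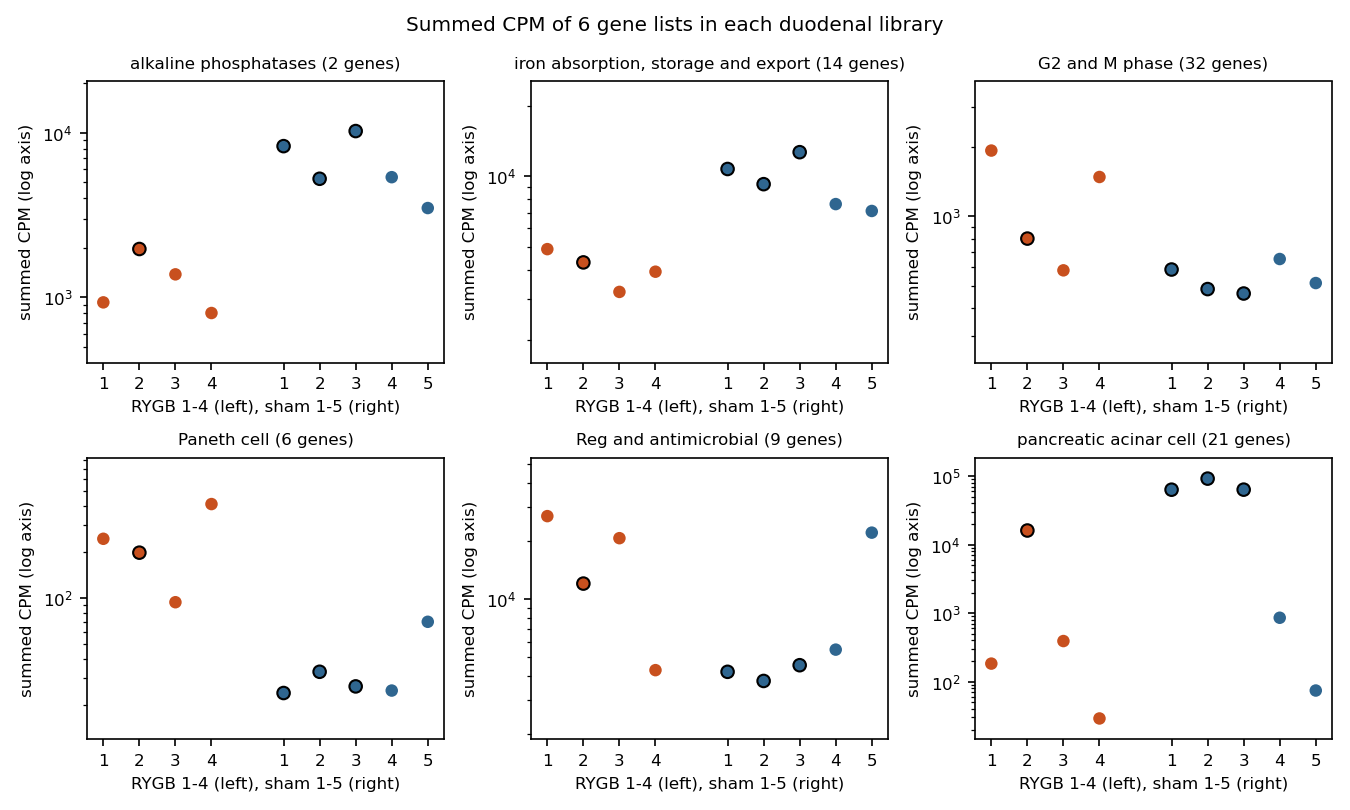
Summed CPM, on log axes, of 6 gene lists in each duodenal library, with RYGB 1 to 4 at the left in orange and sham 1 to 5 at the right in blue, and black rings on the libraries high in pancreatic acinar transcripts. Alkaline phosphatase and iron sums of all RYGB libraries lie below those of all sham libraries, Paneth cell sums lie above, G2 and M phase sums overlap through RYGB 3, and Reg sums overlap through RYGB 4 and sham 5.

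Reg and other antimicrobial genes gave 0 calls among 9 measured in limma. At an unadjusted p below 0.05, 4 were higher and 2 lower, where 17.6% and 5.11% of all genes lay. The median was 2.11 with all libraries and 0.65 in the libraries low in acinar RNA. Reg3b, a bactericidal lectin, had 18820.3, 5739.2, 13244.5 and 1864.7 CPM in RYGB libraries 1 to 4, against 159.6, 250.6, 483.6, 769.9 and 13639.3 CPM in sham libraries 1 to 5, and its relative Reg3g had 4167.4, 1640.1, 4877.1 and 211.2 CPM in RYGB libraries 1 to 4, against 75.3, 22.4, 92.4, 95.6 and 4124.7 CPM in sham libraries 1 to 5. Sham 5 stood with the high RYGB libraries and RYGB 4 nearer to the other sham libraries. Reg1, a relative that the exocrine pancreas also makes, had 515.3, 2383.9, 466.3 and 495.8 CPM in RYGB libraries 1 to 4, against 3055.4, 2725.2, 3227.3, 3539.1 and 2433.8 CPM in sham libraries 1 to 5, with RYGB 2 just below the sham range (log2 fold change -2.02 ± 0.42 SE, adjusted p = 0.0541). Lypd8, which keeps flagellated bacteria from the epithelium, had 3223.4, 2013.3, 1216.3 and 1527.3 CPM in RYGB libraries 1 to 4, against 826.5, 645.2, 611, 947.3 and 1033.5 CPM in sham libraries 1 to 5 (log2 fold change 1.23 ± 0.28 SE, adjusted p = 0.0626).

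Other risen genes encode a chaperone, an enzyme of translation and assembly factors. Hsp90aa1, the inducible cytosolic HSP90, had 67.2, 61, 46.8 and 58.6 CPM in RYGB libraries 1 to 4, against 22, 20.7, 18.2, 22.5 and 31.7 CPM in sham libraries 1 to 5. In limma the log2 fold change was 1.32 ± 0.20 (SE), adjusted p = 0.024. Nars, the asparaginyl-tRNA synthetase of the cytosol, had 448.9, 295.5, 297.1 and 347.8 CPM in RYGB libraries 1 to 4, against 83.6, 99.2, 89.2, 129 and 233.4 CPM in sham libraries 1 to 5 (log2 fold change 1.53 ± 0.29 SE, adjusted p = 0.0487). Pno1, an assembly factor of the small ribosomal subunit, had 31 to 55.5 CPM in RYGB libraries, against 9 to 17 CPM in sham libraries (log2 fold change 1.47 ± 0.24 SE, adjusted p = 0.0371). Ndufaf4, an assembly factor of respiratory complex I, had 24.2 to 36.5 CPM in RYGB libraries, against 9.8 to 16.2 CPM in sham libraries (log2 fold change 1.31 ± 0.21 SE, adjusted p = 0.0357). Among 14 genes of endoplasmic reticulum chaperones and the unfolded protein response 0 passed in limma and the median was 0.38. At an unadjusted p below 0.05, 5 were higher, where 17.6% of all genes lay. Canx, the lectin chaperone calnexin, had 786.8, 567.3, 452.5 and 937.7 CPM in RYGB libraries 1 to 4, against 336.6, 232.9, 239, 338.2 and 375.9 CPM in sham libraries 1 to 5, with no overlap (log2 fold change 1.14 ± 0.25 SE, adjusted p = 0.0552).

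Ehf, an ETS factor of epithelia, had 90.1, 50.9, 54.4 and 73 CPM in RYGB libraries 1 to 4, against 16.9, 15, 12.5, 16.1 and 41.1 CPM in sham libraries 1 to 5. This gave a log2 fold change of 1.77 ± 0.32 (SE), adjusted p = 0.0445. Sham 5 was well above the other sham libraries. Chic1 had 17.2, 18.2, 19.9 and 21 CPM in RYGB libraries 1 to 4, against 4.7, 1.7, 2.1, 2.6 and 10.6 CPM in sham libraries 1 to 5 (log2 fold change 2.13 ± 0.38 SE, adjusted p = 0.0433). Ypel2 had 63.2 to 125.3 CPM in RYGB libraries, against 18.8 to 50.2 CPM in sham libraries (log2 fold change 1.53 ± 0.29 SE, adjusted p = 0.0487), and Fam117b had 27 to 72.3 CPM in RYGB libraries, against 8.5 to 17.2 CPM in sham libraries (log2 fold change 1.57 ± 0.29 SE, adjusted p = 0.0487).

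Markers of mature cell types gave few calls. Of 10 enterocyte genes only Alpi passed, as a fallen gene (0.22% of all genes fell), and the median of the list was -0.03. Ada, adenosine deaminase, a villus tip gene, had 94.3, 627.4, 1175.3 and 358 CPM in RYGB libraries 1 to 4, against 2184.6, 1258.2, 3915.3, 1440.6 and 1249.6 CPM in sham libraries 1 to 5, without overlap and without passing (log2 fold change -2.18 ± 0.64 SE, adjusted p = 0.0947). Among 19 enteroendocrine, 12 goblet and 9 tuft cell genes 0 passed, with medians of -0.04, 0.07 and 0.17. At an unadjusted p below 0.05 in limma, 3 enteroendocrine genes were higher and 2 lower, 3 goblet genes higher and 1 lower, and 0 tuft genes either. Of all genes 17.6% were higher and 5.11% lower at that threshold. Gcg, which encodes glucagon-like peptides, had 34.3, 18.2, 12.3 and 14.7 CPM in RYGB libraries 1 to 4, against 7.1, 6.2, 2.7, 6.2 and 9.9 CPM in sham libraries 1 to 5, with every RYGB library above every sham library. Tac1, the tachykinin precursor, had 14.9, 2.3, 2.7 and 4.6 CPM in RYGB libraries 1 to 4, against 0.3, 0.4, 0.4, 1.1 and 1.3 CPM in sham libraries 1 to 5, also without overlap. Gip, the incretin gene of duodenal K cells, had 183.4, 34.7, 108.5 and 18.7 CPM in RYGB libraries 1 to 4, against 39.7, 94.2, 153.4, 101.7 and 135 CPM in sham libraries 1 to 5, and the granule gene Chga had 24.3 to 79.7 CPM in RYGB libraries, against 58.6 to 72.9 CPM in sham libraries. The groups overlapped in both.

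Clock genes gave 0 calls among 17 in limma, with a median of -0.49. At an unadjusted p below 0.05, 4 were higher and 7 lower, where 17.6% and 5.11% of all genes lay. Dbp, a clock output factor, had 15.8, 15.6, 6.1 and 2.7 CPM in RYGB libraries 1 to 4, against 43.2, 84.4, 62.1, 86.9 and 25 CPM in sham libraries 1 to 5 (log2 fold change -2.59 ± 0.49 SE, adjusted p = 0.0535), and Arntl, the core activator BMAL1, had 34, 24.1, 33.8 and 77.6 CPM in RYGB libraries 1 to 4, against 9.7, 10.6, 8.3, 8.5 and 21.6 CPM in sham libraries 1 to 5 (log2 fold change 1.72 ± 0.35 SE, adjusted p = 0.0541). The groups were apart in opposite directions, and neither difference passed. All 18 interferon response genes had a fold change below 0, as did 36.4% of all genes, with a median of -0.82. Of them 0 passed in limma and 9 were lower at an unadjusted p below 0.05, where 5.11% of all genes lay. Gbp3, a guanylate-binding protein, had 2.1, 2.1, 3 and 2.4 CPM in RYGB libraries 1 to 4, against 8.4, 10.3, 7.2, 5.3 and 5.4 CPM in sham libraries 1 to 5 (log2 fold change -1.26 ± 0.24 SE, adjusted p = 0.0535). Without RYGB 3, 9 of the 18 fell (1.48% of all genes did), and without sham 5, 1 did (1.25%).

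Genes of lipid metabolism other than absorption gave 0 calls in limma in the lists of cholesterol synthesis (21 genes, median 0.33), fatty acid synthesis (14 genes, 0.81) and fatty acid oxidation (18 genes, 0.13). At an unadjusted p below 0.05 in limma, 7, 5 and 4 of them were higher and 0 lower, where 17.6% of all genes were higher and 5.11% lower. Acot1, a cytosolic acyl-CoA thioesterase, had 13.8, 17.5, 12.5 and 29.9 CPM in RYGB libraries 1 to 4, against 4.6, 4.9, 3.7, 3.8 and 10.5 CPM in sham libraries 1 to 5 (log2 fold change 1.59 ± 0.32 SE, adjusted p = 0.0541). Pgk1, of glycolysis, had 10.8 to 18.8 CPM in RYGB libraries, against 4.4 to 7.6 CPM in sham libraries (log2 fold change 1.15 ± 0.23 SE, adjusted p = 0.0541), and Slc1a1, a glutamate transporter, had 39.9, 17.9, 16.8 and 32.6 CPM in RYGB libraries 1 to 4, against 1.5, 2.7, 2.2, 6.7 and 17 CPM in sham libraries 1 to 5, with sham 5 just inside the RYGB range (log2 fold change 2.30 ± 0.53 SE, adjusted p = 0.0626). Slc30a10, a manganese exporter, had 72.4 to 129 CPM in RYGB libraries, against 132.9 to 434.2 CPM in sham libraries (log2 fold change -1.11 ± 0.31 SE, adjusted p = 0.0841), and Gsta4, a glutathione transferase for lipid aldehydes, had 25 to 67.7 CPM in RYGB libraries, against 82.8 to 217.9 CPM in sham libraries (log2 fold change -1.42 ± 0.35 SE, adjusted p = 0.0666). Socs2, which restrains growth hormone signalling, had 42.4, 86.1, 53.9 and 106.3 CPM in RYGB libraries 1 to 4, against 30, 24.1, 13.2, 40 and 32 CPM in sham libraries 1 to 5 (log2 fold change 1.34 ± 0.33 SE, adjusted p = 0.0705), while Igf1 had 0.7, 3.8, 0.2 and 0.1 CPM in RYGB libraries 1 to 4, against 9.2, 7.2, 2.7, 0.1 and 1.3 CPM in sham libraries 1 to 5 and thus was highest in libraries rich in acinar RNA. In all of these except Slc1a1 and Igf1 the groups were apart, and none passed.

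**Figure D3:**
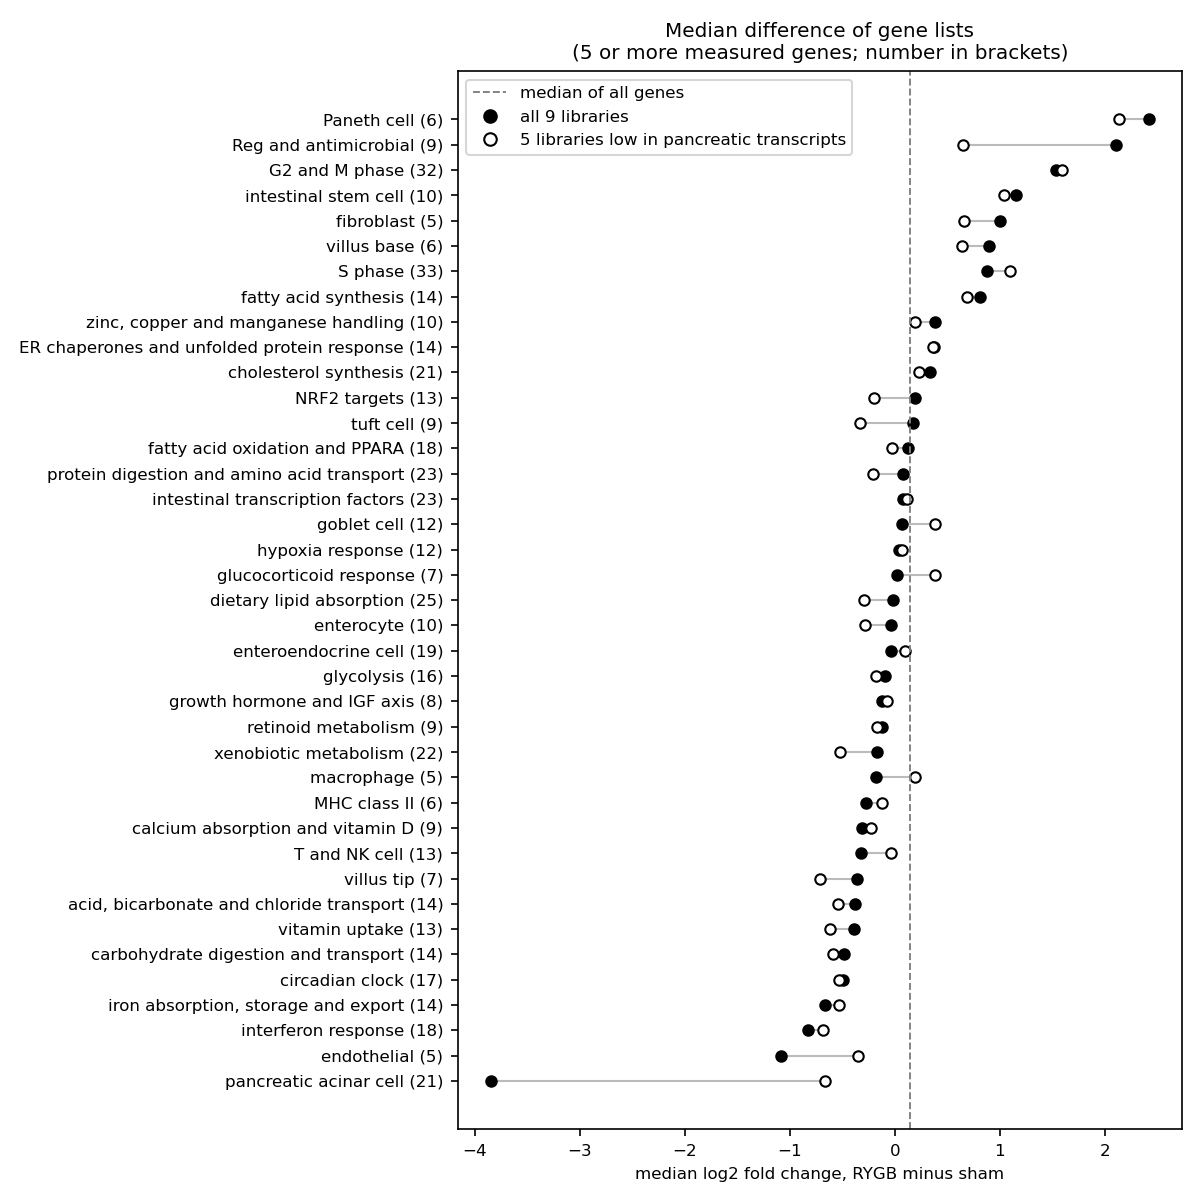
Median log2 fold change, RYGB minus sham, of each gene list with 5 or more measured genes, in all 9 libraries (filled) and in the 5 libraries low in pancreatic acinar transcripts (open), with the median of all genes in 9 libraries as a dashed line. Paneth cell, G2 and M phase and stem cell medians lie above 1 in both, and the acinar median moves from -3.85 with all libraries to -0.67.

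Markers of other cells that a scraping could hold gave 0 calls in limma (at an unadjusted p below 0.05, 3 T and NK cell, 4 endothelial and 1 adipocyte genes were lower and 1 mast cell gene was higher). Of all genes 5.11% were lower and 17.6% higher at that threshold. Median log2 fold changes were -0.32 for 13 T and NK cell genes, -0.18 for 5 macrophage genes, -1.09 for 5 endothelial genes and 1.00 for 5 fibroblast genes, and 0 of 6 smooth muscle genes were in the table. Endothelial sums were 1.1 to 5.5 CPM in RYGB libraries and 3.1 to 30.7 CPM in sham libraries, and fibroblast sums 2 to 78.3 CPM and 0.9 to 36.3 CPM in the same order of groups. Hepatocyte genes summed to at most 4.8 CPM in RYGB libraries and 4.9 CPM in sham libraries. T and NK cell sums were larger, at 246.5 to 365.8 CPM in RYGB libraries and 253.1 to 391.3 CPM in sham libraries. The 2 measured B and plasma cell genes summed to 250.7 CPM in sham 5, 3 to 68.3 CPM in the other sham libraries and 4.5 to 30.5 CPM in RYGB libraries. The part of these cells in the other results was not tested.

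The jejunum of the same study was set beside the duodenum to see which differences both segments had. There 697 genes were higher in RYGB (6.33% of 11019) and 692 lower (6.28%), and 8 animals, 3 RYGB and 5 sham, gave both segments, the RYGB animals being those of duodenal RYGB 1, 3 and 4. Of the 14 risen duodenal genes 3 were also higher in RYGB jejunum, and 6 of the 21 fallen genes measured in both segments were also lower there. Otop3 averaged 3.6 ± 2.64 CPM (SD, n = 4) in RYGB mice and 48.6 ± 33 CPM (SD, n = 5) in sham mice in jejunum, and the jejunal log2 fold change was -3.39 ± 0.55 (SE), adjusted p = 0.00713. Slc2a7 averaged 25.9 ± 3.74 CPM (SD, n = 4) in RYGB mice and 74.6 ± 14.3 CPM (SD, n = 5) in sham mice (jejunal log2 fold change -1.48 ± 0.17 SE, adjusted p = 0.0027), and Defa24 averaged 23 ± 3.6 CPM (SD, n = 4) in RYGB mice and 3.36 ± 3.29 CPM (SD, n = 5) in sham mice (jejunal log2 fold change 2.79 ± 0.49 SE, adjusted p = 0.00977). A model with the animal as a block tested the difference between the segments itself and called 256 of 10662 genes (2.4%). The 7 duodenal calls among them were Akp3, Slc37a2, Fth1, Ncoa4, Mettl7b, Cuedc1 and Brip1, and since they were chosen by their duodenal values those values enter this test too. Fth1 averaged 1165 ± 545 CPM (SD, n = 4) in RYGB mice and 633 ± 296 CPM (SD, n = 5) in sham mice in jejunum, the reverse of the duodenal order, with a jejunal log2 fold change of 0.93 ± 0.44 (SE), adjusted p = 0.183. The jejunal minus duodenal difference for Fth1 was 2.78 ± 0.57 (SE, log2 scale), adjusted p = 0.0305. Akp3 was low in jejunum of both groups, at 4 ± 3.82 CPM (SD, n = 4) in RYGB mice and 6.06 ± 6.17 CPM (SD, n = 5) in sham mice, and its difference between segments was 6.11 ± 0.77 (SE, log2 scale), adjusted p = 0.00936. Slc37a2 averaged 1.65 CPM in RYGB and 1.64 CPM in sham jejunum, and Cuedc1 2.35 and 2.02 CPM in that order. Slc40a1, not called in the duodenum alone, was also low in jejunum. It averaged 11.1 ± 11.5 CPM (SD, n = 4) in RYGB mice and 4.94 ± 1.36 CPM (SD, n = 5) in sham mice. Its difference between segments was 5.91 ± 0.74 (SE, log2 scale), adjusted p = 0.00915. Without the 3 sham animals high in acinar RNA 0 genes passed in limma in that test (7.78% of genes at an unadjusted p below 0.05).

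**Figure D4:**
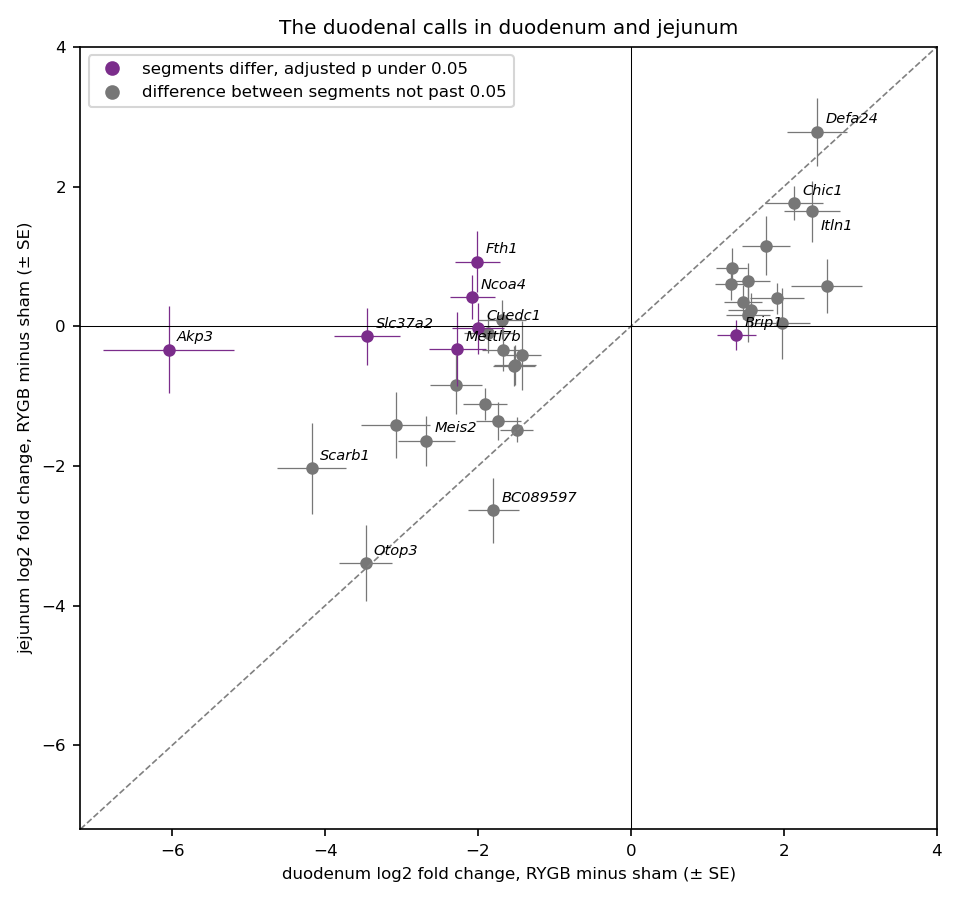
Log2 fold change (RYGB minus sham, ± SE) in jejunum against duodenum for the 35 called duodenal genes present in both tables, with genes whose difference between segments passed an adjusted p of 0.05 in purple and the line of equality dashed. Otop3 and Defa24 lie near the line, and Akp3, Slc37a2, Fth1 and Ncoa4 lie near or above 0 on the jejunal axis.

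The number of calls depended on single libraries. Without RYGB 3, 820 genes were higher and 162 lower. Without sham 5 the counts were 303 and 137, and without both libraries 954 and 229. All 38 genes were among the calls in each of these 3 settings. Leaving out any other library left 0 higher genes and, in lower genes, 1 without RYGB 1, 13 without RYGB 2 (10 of them among the 24), 3 without RYGB 4, 5 without sham 1, 2 without sham 2, 2 without sham 3 and 4 without sham 4. Otop3 passed in all 9 leave-outs, with an adjusted p of at most 0.0338, Scarb1 in 8 and Slc37a2 in 6. Sham 5 was the lowest sham library in 20 of the 24 fallen genes and the highest in 11 of the 14 risen genes. RYGB 2 was the highest RYGB library in 11 of the 24 fallen genes, and RYGB 3 the lowest in 9 of the 14 risen genes.

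**Figure D5:**
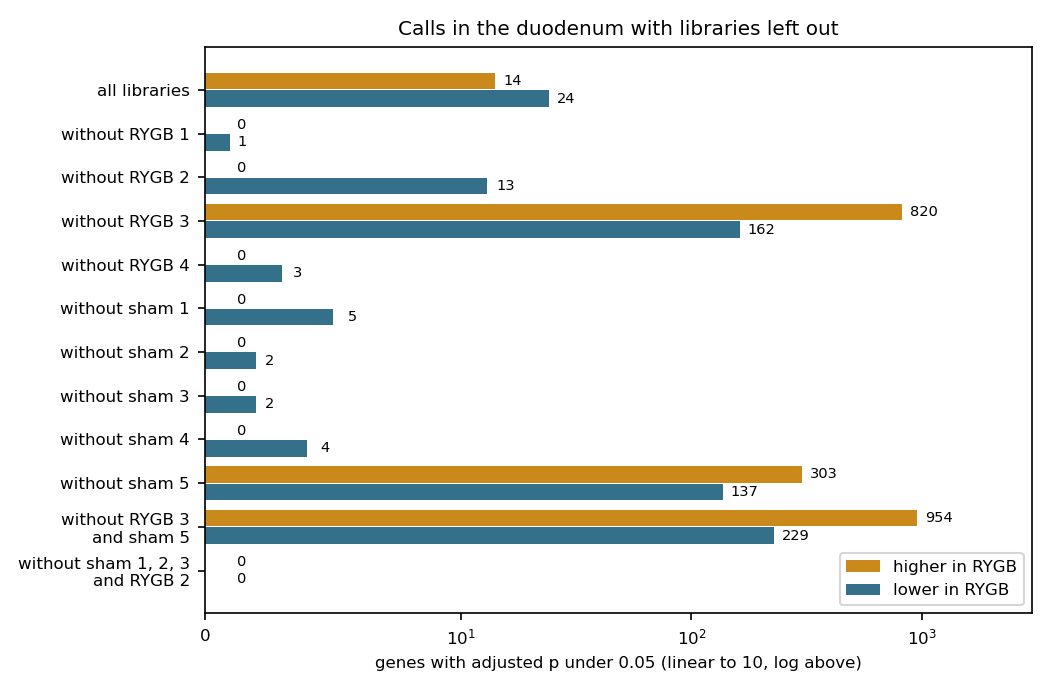
Number of genes with an adjusted p below 0.05 that were higher (gold) or lower (blue) in RYGB duodenum with all libraries and with libraries left out, on an axis that is linear to 10 and logarithmic above. Leaving out RYGB 3 gives 820 and 162 calls, and leaving out the 4 libraries high in acinar transcripts gives 0 and 0.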

How the data were processed

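RNA from scraped duodenal villi was sequenced in 9 libraries, each with its own code in the labels, read here as the animal. The authors deposited gene CPM to 1 decimal, counted with HTSeq on GRCm38 per the submitters' processing notes. Aligner, annotation and HTSeq version are not given in the sources used. Every gene of the deposited table has at least 1 CPM in at least 4 libraries, and 1 row with no symbol (at most 0.0112% of CPM) was left out. Summed CPM were 982689.6 to 990267.3 per library, 0 library pairs were identical, and replicates of a group correlated at 0.906 to 0.984. Read counts were not used here, so no counting interval is given.

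RYGB and sham libraries were compared in limma 3.58.1 (R 4.3.3) on log2(CPM + 1) with trend and robust variance, surgery as the only term, two-sided tests and Benjamini-Hochberg adjustment over 10929 genes. The segments were compared in limma with the animal as a fixed block over 10662 genes. Code was tested on simulated data. Python 3.11.15, pandas 2.3.3 and matplotlib 3.10.9 drew figures and searched sequences. Promoters came from RefSeq on GRCm38.p6, and 5′ untranslated regions and coordinates from GENCODE on GRCm38.

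Named genes were all called genes, predicted genes aside, up to 4 members of each of 49 lists with the smallest p, up to 3 with the highest mean CPM, and a few fixed genes. The text describes part of these. Genes, lists and tests were chosen with earlier results of these data known.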

Additional observations from a re-analysis of the deposited data

Results flagged for a closer look

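Among 198 groups of libraries for 99 genes, 16 (8.08%) held a library far from the others of its group by Dixon's test, which flags about 5% of groups by chance. The genes were chosen with earlier results known and share the same libraries, so these rates cannot be compared. Sham 5 was the flagged library in 8 genes. It had 41.1 CPM of Ehf, against 12.5 to 16.9 CPM in the other sham libraries, 3.7 CPM of Prc1 (0.6 to 1.1), 21.6 CPM of Arntl (8.3 to 10.6) and 10.5 CPM of Acot1 (3.7 to 4.9). It also had 4124.7 CPM of Reg3g (22.4 to 95.6), 44.3 CPM of the mast cell protease gene Mcpt1 (0.5 to 2.2), 149.4 CPM of the tuft cell channel gene Trpm5 (28.4 to 39) and 127.5 CPM of the tuft cell kinase gene Dclk1 (39.2 to 46.1).

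RYGB 2 had 2383.9 CPM of Reg1, against 466.3 to 515.3 CPM in the other RYGB libraries, 37.9 CPM of Tff2 (0.1 to 0.5) and 1319.5 CPM of Slc4a7 (421.3 to 502.3). RYGB 3 had 380.5 CPM of Vdr (551 to 560.2), RYGB 4 had 14.7 CPM of the clock repressor gene Nr1d1 (40.3 to 49.1), and RYGB 1 had 253.4 CPM of the stem cell list member Prom1 (58.4 to 61.6). Sham 2 had 230.3 CPM of Slc2a5 (320.5 to 334.3 in the other sham libraries), and sham 4 had 20019.8 CPM of Apob (8084.8 to 9713).

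The difference between RYGB and sham itself differed between jejunum and duodenum in 10 of the 99 genes described, in limma with the animal as a block. Of all genes 256 of 10662 (2.4%) did, and some of the 99 were not measured in jejunum. Many of the 99 were chosen by their duodenal values, which enter this test too. Without the 3 sham animals high in acinar RNA 0 genes passed. Set as jejunum minus duodenum on the log2 scale, with adjusted p in brackets, Slc40a1 had 5.91 (0.00915), Akp3 6.11 (0.00936) and Slc37a2 3.33 (0.0114). Slc40a1, Akp3, Slc37a2 and Cuedc1 were at low levels in jejunum of both groups. The difference was 2.78 for Fth1 (0.0305), 2.20 for Ncoa4 (0.0305), 2.08 for Cuedc1 (0.0462) and 1.93 for Mettl7b (0.0306). It was -1.48 for Brip1 (0.0486), -2.42 for Acot1 (0.0218) and -1.73 for Hnf4g (0.0453), a nuclear receptor of enterocytes.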

How the results depend on the processing

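With all libraries 14 genes were higher and 24 lower, and 256 differed between the segments. Since the groups did not overlap in any of the 38 genes, leaving out libraries could not turn their direction, and only the counts bear on stability. Higher and lower calls were 8 and 21 with the acinar genes removed, 13 and 37 under median-of-ratios scaling, 68 and 37 among genes with a mean of at least 5 CPM, and 7 and 22 in limma without trend and robust variance. They were 0 and 4 with the log2 of the summed acinar CPM as a covariate, 0 and 0 without sham 1, 2, 3 and RYGB 2, 954 and 229 without RYGB 3 and sham 5, and 1576 and 563 with limma library weights. At an adjusted p below 0.1, a threshold chosen after seeing the data, they were 619 and 186. Leaving out 1 library gave 0 to 820 higher and 1 to 162 lower genes, and leaving out 1 animal gave 59 to 312 genes that differed between the segments, against 0 without the 3 sham animals high in acinar RNA. Fits that left libraries out also held fewer of them, and the cause of the changed counts was not tested. Pseudocounts of 0.1 and 0.5 gave 14 and 25, and 14 and 26, calls. The replicate numbers name different animals, and same-numbered libraries deviated from their group means with correlations of -0.317, 0.322, 0.0871 and 0.556, RYGB 1, 2 and 3 correlating best with another number. A fit with the replicate number as a block gave 301 higher and 140 lower genes. Sham 5 is alone under its number and carries no weight in that fit, and without sham 5 and with no block the counts were 303 and 137. Medians of gene lists moved by more than the spread between libraries in 4 of 45 lists under median-of-ratios scaling, 6 without sham 1, 2, 3 and RYGB 2, and 1 each with a pseudocount of 0.1, without RYGB 3 and without RYGB 4. Depth is unknown, so the precision of genes near 1 CPM cannot be given.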

Other observations

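RYGB 3 and sham 5 shared high levels of tuft and mast cell genes, although they belong to different groups. Summed over 9 tuft cell genes the level was 757.9 CPM in RYGB 3 and 624.1 CPM in sham 5. The other RYGB libraries had 100.4 to 264.8 CPM, and the other sham libraries 145.4 to 174.1 CPM. Mcpt1, a mast cell protease of the mucosa, had 39.9 CPM in RYGB 3 and 44.3 CPM in sham 5, with at most 5.7 CPM in the other RYGB libraries and 2.2 CPM in the other sham libraries. These are the libraries whose removal raised the number of calls, and their part in it was not tested.

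RYGB 1 held 392.5 CPM of Fkbp5, a chaperone gene induced by glucocorticoids, against 4.8 to 42 CPM in the other RYGB libraries and 7 to 36.8 CPM in the sham libraries. Tmprss15, enteropeptidase, the duodenal protease that activates trypsinogen, had 196.8, 680, 222.6 and 144.7 CPM in RYGB 1 to 4, against 1219.7, 618.6, 997.2, 876.3 and 248.1 CPM in sham 1 to 5. RYGB 2 overlapped the sham libraries, and the other RYGB libraries lay below all of them.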
